A study of Mus musculus with 6 samples.

Results

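Genes of myelin and of the oligodendrocyte lineage were followed in microglia from a mouse model of lupus. They are Mbp, Mog, Mag, Mobp, Cnp, Cldn11, Ermn, Mal and Pdgfra, chosen by symbol, and each of these 9 genes matched 1 of the 55401 Ensembl identifiers in the count table. Microglia were isolated from untreated mice of 6 weeks, and 3 libraries were sequenced from each strain. The lupus strain is MRL/lpr, which carries the lpr mutation of the death receptor gene Fas, and the control strain is MRL/mpj, which has the same background without that mutation. Per the study's methods, mice were perfused, brains were digested with collagenase and DNase and spun on Percoll, and microglia were taken on magnetic beads by the myeloid integrin CD11b, with no negative selection described for other cell types. The methods describe female mice, and a legend counts 3 mice of each strain for the sequenced microglia, as many as there are libraries. Which mouse gave which library is not labelled, and the p-values measure the spread between the libraries.

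Oligodendrocytes wrap the axons of the brain in myelin, a stack of membranes held together by specialised membrane proteins. They arise from precursors that carry the PDGF receptor alpha, pass through a committed stage and then switch on the genes of the sheath. The products of the 9 genes sit in different places. Mbp and Mobp encode basic proteins of compact myelin, Cldn11 a tight junction protein between its layers, and Mal a raft proteolipid that sorts membrane proteins. Cnp encodes an enzyme of the cytoplasmic channels, Ermn a cytoskeletal protein of myelinating cells, Mag an adhesion protein of the inner face that touches the axon, and Mog a protein of the outer face. Pdgfra marks the precursors. Several of these genes are also used outside the lineage, for example Mal in T cells and epithelia, Pdgfra in fibroblasts, and the Golli unit of Mbp in immune cells. A count per gene does not separate those sources.

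Total counts ran from 45481609 to 49846634 per library. Counts piled up at multiples of 4, with 1234 genes at 4 counts in MRL/lpr replicate 1 against 377 genes at 3 counts, and how many read pairs a low count stands for is not given. Levels are given as CPM, the count scaled to a common library size with the trimmed mean of M-values (TMM). The 12 microglia markers summed to 23560 to 26120 CPM in MRL/lpr and 27210 to 27900 CPM in MRL/mpj, and none was at 0 in all libraries. Of these 12, 3 were lower in MRL/lpr (adjusted p under 0.05 from edgeR), where 9.06% of all tested genes were called lower. Cx3cr1, 1 of the 12, had 10645, 132706 and 10334 counts in MRL/lpr and 28995, 27912 and 29349 counts in MRL/mpj. The sum of MRL/lpr replicate 2 thus holds 1 gene far above its level in the other libraries. By comparison, the 9 genes summed to 212.9 to 227.3 CPM in MRL/lpr and 224.2 to 256.1 CPM in MRL/mpj.

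The levels of the 9 genes were compared per length on the deposited FPKM values, which divide the count by gene length and depth. Mal was highest, at 26.6 FPKM (SD 2.77, n = 3) in MRL/lpr and 25.4 FPKM in MRL/mpj, followed by Cnp, Mag, Mbp, Mobp, Cldn11, Pdgfra, Ermn and Mog, in the same order of means in both strains. The 4 highest genes were thus Mal, Cnp, Mag and Mbp, between 4.46 and 29.09 FPKM in every library. Mog stood last, at 0 to 0.10 FPKM in MRL/lpr and 0.14 to 0.29 FPKM in MRL/mpj. Mobp had 0.94 to 1.03 FPKM in MRL/lpr, below every Mbp value there (4.46 to 5.09 FPKM). In MRL/mpj the ranges of Mobp (4.44 to 5.42 FPKM), Mbp (4.80 to 6.29 FPKM) and Mag (5.59 to 7.0 FPKM) each overlapped the next. Further down, Pdgfra overlapped with Ermn and Ermn with Mog in both strains, and Cldn11 overlapped with Pdgfra in MRL/lpr only. Mog is known as a mature oligodendrocyte gene, and so is Opalin, which had 19 counts in MRL/mpj replicate 2 and 0 counts in the other 5 libraries. Opalin was picked after its values were seen, and other mature oligodendrocyte genes differed widely. Hapln2 had at most 7 counts in any library, and Pllp had 495 counts or more in every library.

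Between the strains, 2 of the 9 genes had an adjusted p-value under 0.05, namely Mobp and Pdgfra, and both were lower in MRL/lpr. Among all 19554 genes tested, 20.2% passed this threshold, 9.06% lower and 11.1% higher. Mobp and Pdgfra also passed an absolute log2 fold change of 1, as did 8.34% of all tested genes, 3.66% lower and 4.67% higher. None of the 9 genes was called higher by edgeR or by DESeq2, and 1, Mal, was higher at an unadjusted p under 0.05. The CPM values of 5 genes lay wholly lower in MRL/lpr (Mobp, Pdgfra, Cldn11, Ermn and Mog), as did those of 19.4% of tested genes. For 2 genes, Cnp and Mal, they lay wholly higher, as did those of 19.6% of tested genes (39% in either direction). Mog entered the test through the MRL/mpj libraries only, and the other 8 passed the filter on low counts in all 6 libraries. In these bulk samples, fewer cells of a type and less RNA per cell cannot be told apart.

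**Figure D1:**
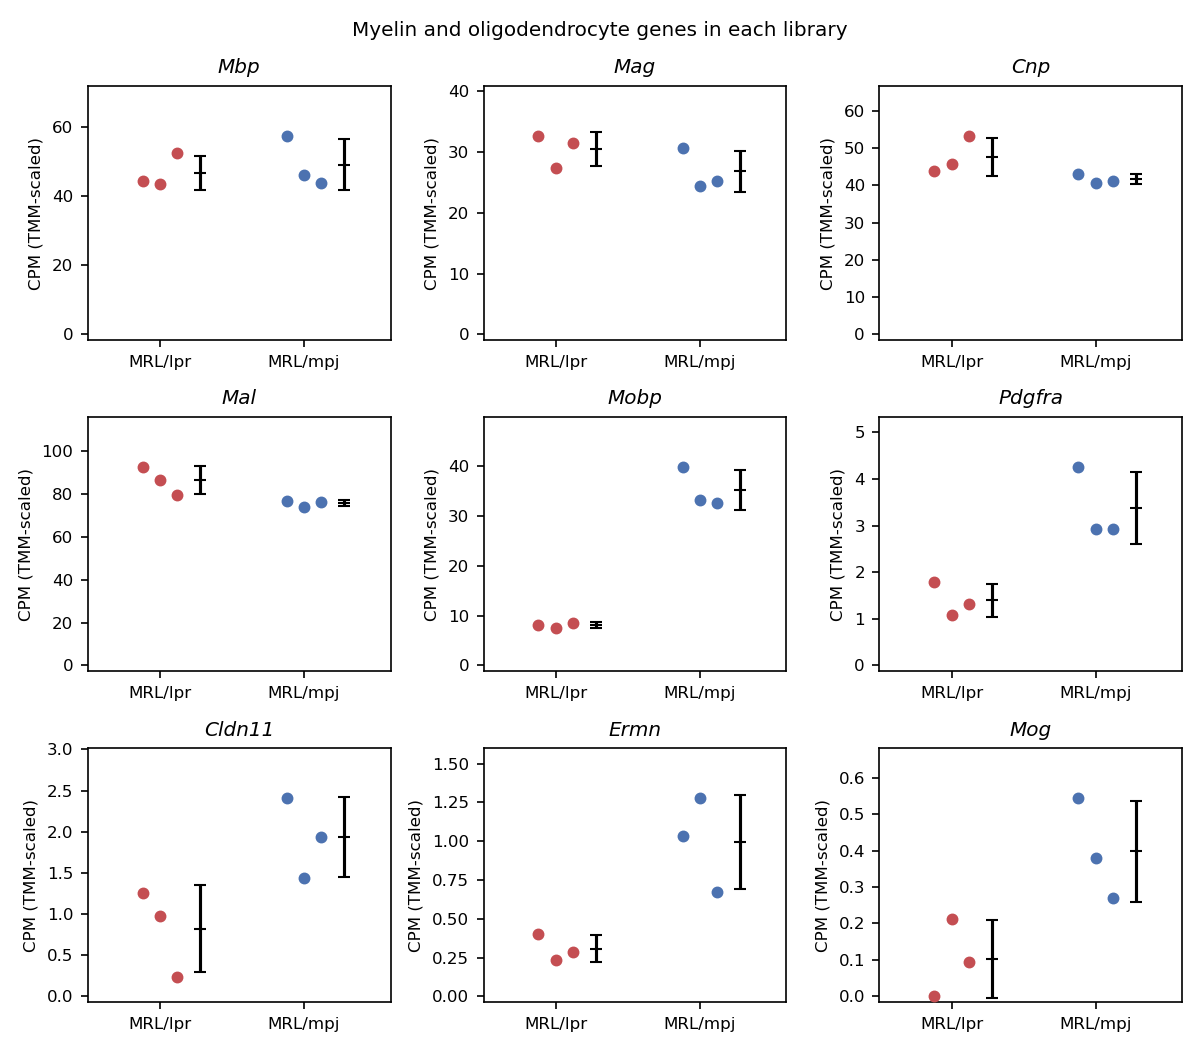
Level of each of the 9 genes in each library, in TMM-scaled CPM on linear axes, for 3 MRL/lpr libraries (red) and 3 MRL/mpj libraries (blue), with the mean and SD of each strain as a black bar. Mobp sits near 8.04 CPM in MRL/lpr and 35.3 CPM in MRL/mpj, while the points of Mbp and Mag overlap between the strains.

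Mobp (ENSMUSG00000032517, chr9:120149707-120181484, GRCm38, plus strand) was counted 380, 350 and 360 times in MRL/lpr and 2052, 1666 and 1702 times in MRL/mpj. Every MRL/lpr library was far below every MRL/mpj library, and the values within a strain were close. In CPM the means were 8.04 ± 0.59 (SD, n = 3) and 35.3 ± 4.0 (SD, n = 3), or 4.39-fold lower in MRL/lpr. The log2 fold change was -2.13 (standard error, SE, 0.12, 95% confidence interval -2.41 to -1.86, adjusted p = 3.76e-06, quasi-likelihood test of edgeR, Benjamini-Hochberg). Across 13 alternative settings it lay between -2.26 and -2.04, with adjusted p-values from 7.47e-45 to 0.00014. Gm38642, the 1 gene annotated across Mobp exons, had at most 4 counts in any library.

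The stretch before the start of Mobp and that of Mag are shown because these are a gene that fell and one that did not pass the test, and because the Mobp stretch holds many copies of one motif. Each is 300 bases from RefSeq on GRCm38.p6, from 250 bases before the start to 50 bases after it, written 5′ to 3′ on the gene's strand. Capitals mark ACAAAG or its reverse complement CTTTGT, the core of Sox family sites, and CTGGCAC, a core of Myrf sites, which was also searched on both strands.
Mobp, chr9:120149492-120149791, plus strand: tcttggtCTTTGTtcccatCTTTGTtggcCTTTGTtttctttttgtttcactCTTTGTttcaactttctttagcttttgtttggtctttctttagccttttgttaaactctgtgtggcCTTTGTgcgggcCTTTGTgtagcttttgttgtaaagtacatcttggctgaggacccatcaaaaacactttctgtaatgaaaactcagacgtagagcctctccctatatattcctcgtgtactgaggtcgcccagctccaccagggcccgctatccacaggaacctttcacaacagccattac
Mag, chr7:30914814-30915113, minus strand: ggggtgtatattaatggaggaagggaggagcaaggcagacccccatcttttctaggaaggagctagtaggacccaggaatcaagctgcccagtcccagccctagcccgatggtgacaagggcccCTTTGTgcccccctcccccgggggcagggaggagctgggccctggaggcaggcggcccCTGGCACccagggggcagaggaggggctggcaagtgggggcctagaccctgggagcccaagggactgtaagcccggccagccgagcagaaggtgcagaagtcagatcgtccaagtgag

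The Mobp window held 6 matches to ACAAAG and no match to CTGGCAC, and the Mag window held 1 of each. Of 32851 windows of this length in the table, 18.7% held ACAAAG at least once, and the Mobp window was the only one with 6 or more matches. CTGGCAC was in 5.01% of the windows and CAGCTG, an E-box of the kind that Olig proteins bind, in 16.3%. A RefSeq window was at hand for 8 of the 9 genes. Mag has 3 windows, and the one whose start lies nearest the gene's 5′ end was used. Cnp had 1 match each to ACAAAG and CTGGCAC, and the windows of Mog, Cldn11, Ermn, Mal and Pdgfra held none of the 3 motifs. No marked match overlaps another, and a match describes the letters and is no evidence of binding.

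Pdgfra (ENSMUSG00000029231, chromosome 5), the receptor through which PDGF-A drives division of oligodendrocyte precursors, had 84, 51 and 55 counts in MRL/lpr and 219, 146 and 152 counts in MRL/mpj. The strains did not overlap, and MRL/mpj replicate 1 was the highest library. Its log2 fold change was -1.27 (SE 0.30, 95% confidence interval -1.95 to -0.58, adjusted p = 0.0164 from edgeR). This call was lost when MRL/lpr replicate 2 (adjusted p = 0.0557) or MRL/mpj replicate 1 (adjusted p = 0.0769) was left out, and its adjusted p ran from 0.0051 to 0.0769 over the alternatives. The level was low in both strains, at 1.40 ± 0.36 CPM (SD, n = 3) against 3.37 ± 0.77 CPM (SD, n = 3).

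Ermn, Cldn11 and Mog, genes of mature myelinating cells, had large fitted fold changes without passing the test. Ermn (ENSMUSG00000026830, chromosome 2) had 19, 11 and 12 counts in MRL/lpr and 53, 64 and 35 counts in MRL/mpj, with a log2 fold change of -1.68 (SE 0.53, adjusted p = 0.0548 from edgeR). With scaling by library size only its adjusted p was 0.0386, in a range up to 0.204 over the alternatives. Cldn11 (ENSMUSG00000037625, chromosome 3) had 59, 46 and 10 counts in MRL/lpr and 124, 72 and 101 counts in MRL/mpj, with a log2 fold change of -1.22 (95% confidence interval -2.43 to -0.01, adjusted p = 0.154 from edgeR). MRL/lpr replicate 3 was its lowest library, and without it the value was -0.79. Mog (ENSMUSG00000076439, chromosome 17) had 0, 10 and 4 counts in MRL/lpr and 28, 19 and 14 counts in MRL/mpj. Its log2 fold change was -1.93 with a 95% confidence interval from -4.44 to 0.59 (adjusted p = 0.282 from edgeR), which spans 0. Mog ends 108 bases from Zfp57 on the opposite strand, a gene picked after its values were seen, which had 107 to 162 counts in MRL/lpr and 235 to 277 counts in MRL/mpj (log2 fold change -0.82, adjusted p = 0.0502 from edgeR, 0.0111 to 0.143 over the alternatives).

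The 4 most abundant genes had small fold changes, and none passed the test. Mbp (ENSMUSG00000041607, chromosome 18) had 2076, 2042 and 2190 counts in MRL/lpr and 2949, 2294 and 2279 counts in MRL/mpj. The strains overlapped in CPM, at 46.6 ± 5.0 (SD, n = 3) and 49.0 ± 7.31 (SD, n = 3), and the log2 fold change was -0.07 (95% confidence interval -0.35 to 0.21, adjusted p = 0.754 from edgeR). MRL/mpj replicate 1 was the highest library, and without it the value was 0.06. Mag (ENSMUSG00000036634, chr7:30899176-30914873, GRCm38, minus strand) had 1536, 1288 and 1315 counts in MRL/lpr and 1576, 1224 and 1315 counts in MRL/mpj, with a log2 fold change of 0.19 (95% confidence interval -0.08 to 0.45, adjusted p = 0.329 from edgeR). Its values overlapped between the strains, and MRL/mpj replicate 1 was again the highest library of its strain.

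Cnp (ENSMUSG00000006782, chromosome 11) had 2065, 2147 and 2228 counts in MRL/lpr and 2215, 2027 and 2148 counts in MRL/mpj. After scaling, the MRL/lpr values lay just above the MRL/mpj values, and the log2 fold change was 0.19 (95% confidence interval -0.02 to 0.41, adjusted p = 0.205 from edgeR). Cnp shares 154 exonic bases with Dnajc7 on the opposite strand, and Dnajc7 had 7340 to 12903 counts, so some reads could be assigned to either gene if strand was not used in counting. Dnajc7 itself fell by 0.36 on the log2 scale (adjusted p = 0.00503 from edgeR). Mal (ENSMUSG00000027375, chromosome 2) had 4358, 4078 and 3326 counts in MRL/lpr and 3948, 3697 and 3969 counts in MRL/mpj. Its log2 fold change was 0.19 (95% confidence interval 0.01 to 0.37, adjusted p = 0.133 from edgeR). MRL/lpr replicate 3 was the lowest MRL/lpr library for Mal, and without it the log2 fold change was 0.25 with an adjusted p of 0.0211, in a range up to 0.656 over the alternatives. Mall, a relative of Mal that lies next to it on chromosome 2 and was picked after its values were seen, had 431, 376 and 395 counts in MRL/lpr and 159, 92 and 83 counts in MRL/mpj. It rose by 2.03 in log2 (SE 0.27, adjusted p = 0.000595 from edgeR).

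**Figure D2:**
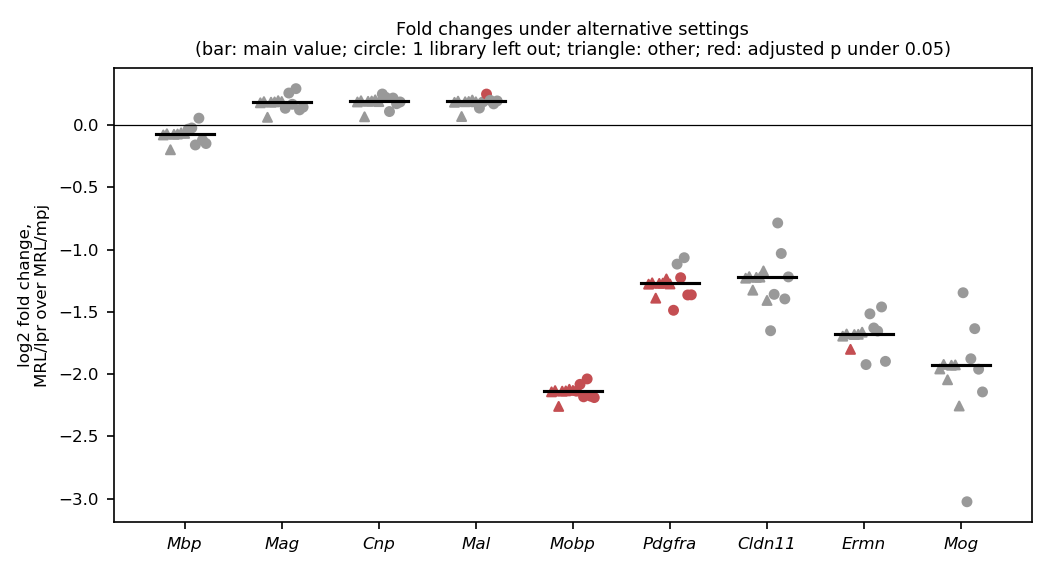
Log2 fold change (MRL/lpr over MRL/mpj) of each gene in the main fit (bar), with 1 library left out (circles) and under the other alternatives (triangles), in red where the adjusted p was under 0.05. Mobp stayed between -2.26 and -2.04 and red throughout, Pdgfra has 2 grey circles, and the values of Mog range from -3.03 to -1.35.

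The make-up of the summed counts of the 9 genes was compared next. Mobp took 3.49% to 3.79% of their summed counts in MRL/lpr and 14.5% to 15.6% in MRL/mpj. Mal took 35.0% to 41.2% in MRL/lpr and 30.0% to 33.9% in MRL/mpj. Shares within a library depend on each other, so a lower Mobp share raises those of the other genes. Mbp, at 19.5% to 23.0% over all 6 libraries, held nearly the same share in both strains. Per Mbp count there were 0.183, 0.171 and 0.164 Mobp counts in MRL/lpr and 0.696, 0.726 and 0.747 in MRL/mpj. The log2 difference of this ratio was -2.06, with the strains wholly apart (exact permutation p = 0.1, two-sided, the smallest that 3 libraries against 3 can give, and 0.117 after Benjamini-Hochberg adjustment over 7 genes). The ratios of Pdgfra, Cldn11 and Ermn to Mbp differed by -1.21, -1.44 and -1.61 on the log2 scale, and those of Mag, Cnp and Mal by 0.26, 0.26 and 0.25. Of these, the ratio of Mal to Mbp overlapped between the strains (exact permutation p = 0.3, two-sided, 0.3 adjusted), and the other ratios did not overlap (each exact permutation p = 0.1, adjusted 0.117). All 7 ratios share the Mbp counts, so they do not vary independently. CPM values alone lay wholly apart in 39% of tested genes, and the share of all genes whose ratio to Mbp lies apart was not tested. Mog was left out of this comparison because it had 0 counts in 1 library.

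**Figure D3:**
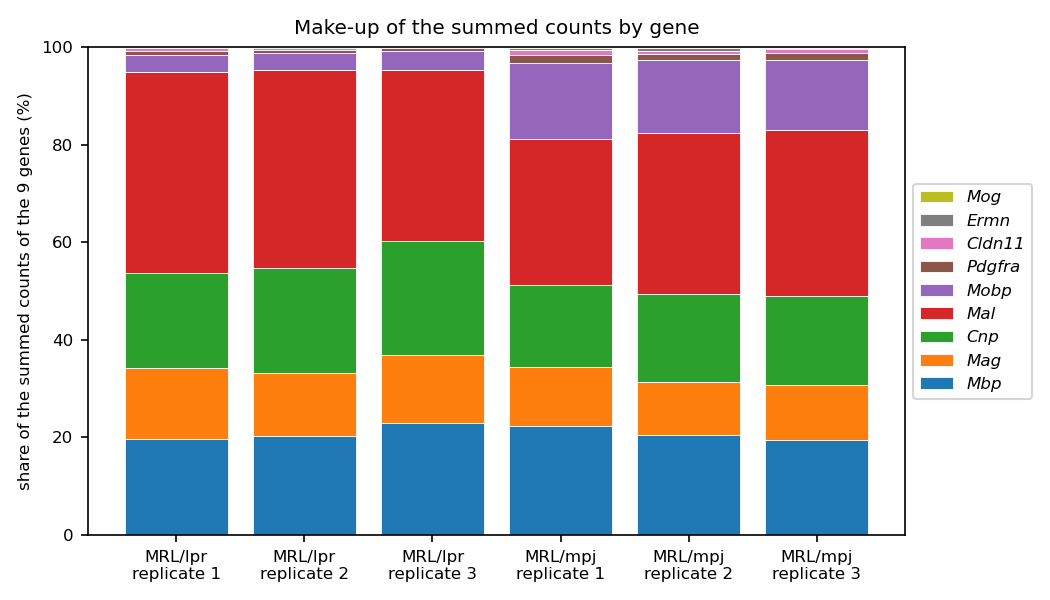
Share (%) of the summed counts of the 9 genes that each gene took in each of the 6 libraries. The Mobp segment (purple) is 3.49% to 3.79% in MRL/lpr and 14.5% to 15.6% in MRL/mpj, and the Mbp segment (blue) is 19.5% to 23.0% in all.

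Other genes of the lineage were read from 5 lists of 43 genes, of which 31 had enough counts to be tested. In MRL/lpr, 6 were called lower and 3 higher, where 9.06% of all tested genes were called lower and 11.1% higher. The median log2 fold change was -0.85, beside -0.01 over all tested genes. Of the 31, 3 entered the test through the MRL/mpj libraries only, namely Gjc3, Sox10 and Matn4, and Gjc3 is 1 of the 6 called lower. The list of mature oligodendrocyte genes had 9 tested of 14, with 3 lower and none higher. Tspan2, a tetraspanin of the sheath, was counted 253, 298 and 245 times in MRL/lpr and 582, 616 and 719 times in MRL/mpj, with no overlap. It fell by 1.09 in log2 (SE 0.15, adjusted p = 0.000825 from edgeR). Gjc3, a gap junction gene, fell by 3.0, with 4 to 8 counts per MRL/lpr library and a place in the test through MRL/mpj only, and the small heat shock gene Cryab fell by 1.32. Pllp and Sept4, at 495 counts or more in every library, had log2 fold changes of -0.36 and -0.21 (adjusted p = 0.255 and 0.312 from edgeR).

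Genes of the earlier stages were mixed, where 9.06% of all tested genes were called lower and 11.1% higher. Of 4 committed precursor genes tested of 5, 2 were lower. The receptor gene Gpr17 had 92, 92 and 79 counts in MRL/lpr against 247, 252 and 259 counts in MRL/mpj, and fell by 1.35 in log2 (SE 0.21, adjusted p = 0.00147 from edgeR). Bcas1 fell by 1.56. Of 7 precursor genes tested of 9, Cspg4, the NG2 proteoglycan gene that pericytes also use, fell by 1.05, and the matrix gene Vcan rose by 0.96 (adjusted p = 0.0183 from edgeR). Vcan lost this call without MRL/lpr replicate 2 or 3, without MRL/mpj replicate 2 or 3 and with a replicate block, at adjusted p-values of 0.0523 to 0.0694. Of 6 transcription factor genes tested of 9, 2 were higher and none was lower. Myrf, the regulator of myelin genes, had 65, 109 and 58 counts in MRL/lpr and 32, 15 and 20 counts in MRL/mpj, and St18 had 67, 126 and 57 counts against 14, 0 and 4. Their log2 fold changes were 1.95 and 3.93 (adjusted p = 0.0137 and 0.0131 from edgeR), and both calls were lost when MRL/lpr replicate 2 or MRL/mpj replicate 3 was left out, at adjusted p-values of 0.0505 to 0.0693. St18 passed the filter on low counts in 3 MRL/lpr libraries but in only 1 MRL/mpj library.

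The lineage factor Sox10 had 0, 0 and 8 counts in MRL/lpr and 32, 29 and 34 counts in MRL/mpj. Its log2 fold change was -3.28 with an SE of 1.24 (adjusted p = 0.1 from edgeR), and it entered the test through the MRL/mpj libraries only. DESeq2 gave an adjusted p of 0.0425 and the fit without MRL/lpr replicate 3 gave 0.00791, in a range up to 0.234. Olig1 and Olig2 had at most 49 counts in any library and log2 fold changes of -1.06 and -0.34 (adjusted p = 0.2 and 0.818 from edgeR). Nkx2-2 had 0 counts in all 6 libraries. None of the 5 myelin lipid genes tested of 6 was called. Cers2 and Elovl1, which make very long chain ceramides and acyl chains in many cell types, had log2 fold changes of 0.05 and 0.18. Ugt8a, the galactosyltransferase of myelin lipids, had a log2 fold change of -1.83 (adjusted p = 0.0698 from edgeR, 0.0238 to 0.188 over the alternatives).

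**Figure D4:**
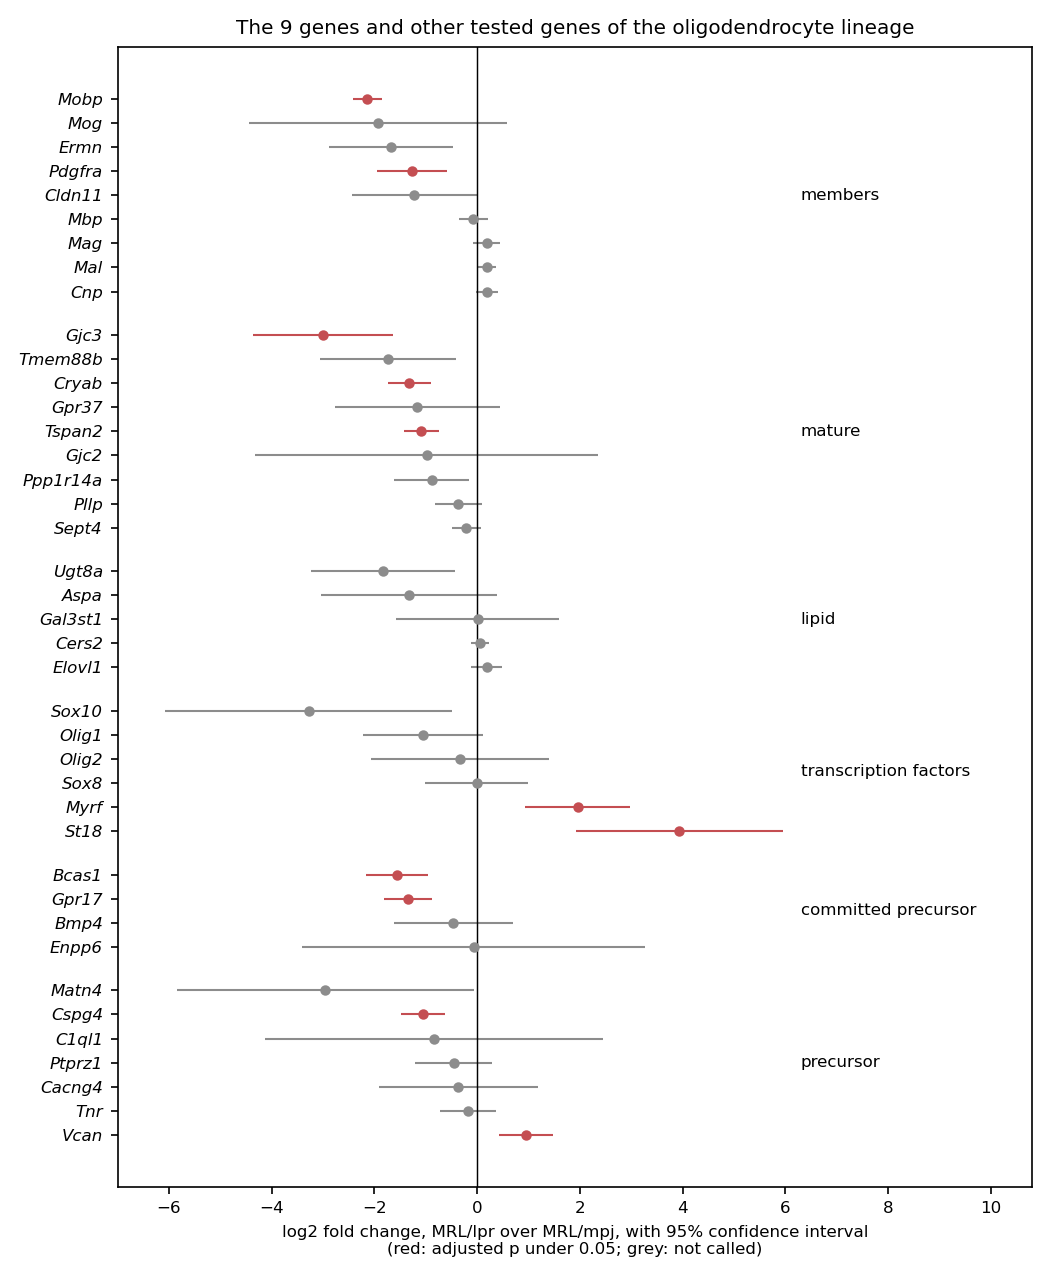
Log2 fold change (MRL/lpr over MRL/mpj) with its 95% confidence interval for the 9 genes and the 31 other lineage genes tested, grouped by list, in red where the adjusted p was under 0.05. In the upper block Mobp and Pdgfra are red and lie left of 0, and Mbp, Mag, Mal and Cnp lie within 0.2 of it.

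Genes that act with the 9 were read from 3 further lists. Of 5 PDGF genes, the ligand gene Pdgfb rose by 0.66 on the log2 scale (398 ± 12.1 CPM against 253 ± 5.60 CPM, SD, n = 3; adjusted p = 5.42e-05 from edgeR). The sister receptor gene Pdgfrb fell by 0.56 (adjusted p = 0.00703 from edgeR). Pdgfa, the main ligand of the receptor alpha, had a log2 fold change of 0.24 (adjusted p = 0.164 from edgeR). Mag, Omg and Rtn4 are ligands of the Nogo receptor family, which restrains axon growth. In that list 1 of 8 genes tested was lower and none higher, where 9.06% of all tested genes were called lower and 11.1% higher. Rtn4rl1, a relative of the Nogo receptor gene, had 3023, 3348 and 2717 counts in MRL/lpr and 7372, 6987 and 7024 counts in MRL/mpj, and fell by 1.06 (SE 0.07, adjusted p = 1.09e-05 from edgeR). Rtn4 and Omg had log2 fold changes of -0.15 and -0.88 (adjusted p = 0.181 and 0.234 from edgeR). Of 5 genes of peripheral myelin, 2 were tested and neither was called, and Pmp2 had 0 counts in all 6 libraries.

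Markers of other cells were compared between the strains beside these genes. Among all tested genes, 9.06% were called lower and 11.1% higher. Choroid plexus and ependyma markers summed to 370.1 to 380.5 CPM in MRL/lpr and 1077 to 1162 CPM in MRL/mpj, with 7 of 10 lower. Ttr, the transthyretin gene of the choroid plexus, made up most of this sum, at 301.6 CPM against 942 CPM, and fell by 1.64 on the log2 scale. Of the genes of ciliated cells in this list, Rsph1 fell by 1.39, while Foxj1, Ccdc153 and Tmem212 had log2 fold changes of -0.43, 0.33 and 0.16 and were not called. Fibroblast markers, which bear on Pdgfra, summed to 13.3 to 19.1 CPM against 33.5 to 39.1 CPM, with 3 of 5 lower, and Col1a2 fell by 0.93. Neuron markers summed to 25.8 to 30.1 CPM against 43.2 to 50.4 CPM, with 2 of 10 lower, and Stmn2 had a log2 fold change of -0.28 (adjusted p = 0.177 from edgeR). All 10 neuron markers had a negative log2 fold change. Astrocyte markers summed to 125.2 to 173.1 CPM against 203.7 to 213 CPM. Of these 10, Slc1a3 had 66.1 CPM against 130.1 CPM, and 5 had a positive and 5 a negative log2 fold change. In edgeR only Slc1a3 was lower (log2 fold change -0.98), a call lost without MRL/lpr replicate 3 or any 1 MRL/mpj library and without a filter on low counts (adjusted p up to 0.146). T cell markers, which bear on Mal, summed to 19.0 to 25.6 CPM against 6.50 to 7.88 CPM, with 6 of 8 higher, and Lck rose by 1.72. Cd3e, 1 of these 6, had 103, 92 and 120 counts against 2, 0 and 9, and entered the test through the MRL/lpr libraries only. Of the others called, Trac passed the filter on low counts in 1 MRL/mpj library, and Cd3g and Trbc2 each passed it in 2. Brain endothelium markers summed to 1958 to 2143 CPM against 1934 to 1972 CPM, with 2 of 10 higher and 3 lower, and Flt1 rose by 0.36. None of the markers in these 6 lists was at 0 in all libraries. The part of these cells in the values of the 9 genes was not tested.

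**Figure D5:**
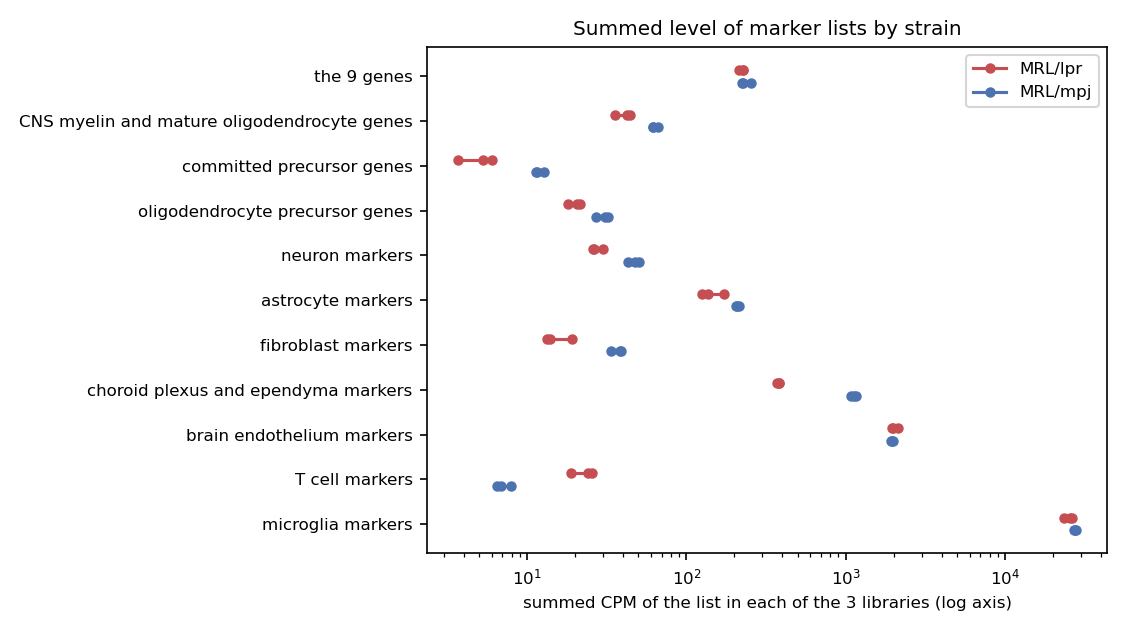
Summed CPM of each marker list in each library, on a log axis, for MRL/lpr (red) and MRL/mpj (blue), with a line over the 3 libraries of a strain. The choroid plexus and ependyma list lies at 370.1 to 380.5 CPM in MRL/lpr and 1077 to 1162 CPM in MRL/mpj, and the T cell list lies at 19.0 to 25.6 CPM in MRL/lpr and 6.50 to 7.88 CPM in MRL/mpj.

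Across the 6 libraries the mean standardized log2 CPM profile of the 9 genes was highest in MRL/mpj replicate 1 and lowest in MRL/lpr replicate 2. Among 14915 other tested genes with a mean of at least 1 CPM, the 8 with the most similar profile were Gm12338, Gm32688, Gm8451, 4930578C19Rik, Higd2a, Mcts1, Tmem87a and Gnb1. Their Pearson correlations with it were 0.9754 to 0.986 over 6 libraries, which share their strain. Of these 8, Tmem87a was called lower (adjusted p = 0.0446 from edgeR). The 8 are the highest of 14915 correlations, 33 of which were over 0.95, and how many would be so high by chance was not tested. The 9 genes themselves correlated with their mean profile from -0.48 for Mal to 0.86 for Pdgfra, so the mean profile is that of no single member.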

How the data were processed

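Per the labels, RNA was depleted of ribosomal RNA with Ribo-Zero and made into TruSeq stranded libraries, while the methods of the study describe purified mRNA. The authors filtered paired-end reads with Cutadapt and aligned them with HISAT2. The submitters' processing notes name cutadapt 1.9.3, HISAT2 2.0.4, Cufflinks, Cuffdiff 2.2.1 and the build GRCm38. The counting tool, its annotation and its use of strand are not given in the sources used here. The authors deposited a matrix of raw counts, and for each library a table of FPKM. Of 55401 identifiers, 55141 had a symbol and position in GENCODE M21 (GRCm38).

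Counts were filtered with filterByExpr (minimum count 10, minimum total 15), scaled by TMM and tested with the robust quasi-likelihood test of edgeR 4.0.16 in R 4.3.3, with Benjamini-Hochberg adjustment over all 19554 tested genes and no covariate. The standard error is the log2 fold change divided by the root of the F statistic. DESeq2 1.42.0 was one of the alternatives. FPKM served only to compare levels between genes. The fit was tested on simulated data.

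The 9 genes and all lists were chosen with earlier results of these data known. Named were the 9 genes, genes of the lineage, peripheral myelin, PDGF and myelin inhibitor lists (any could be named, called ones first), the most abundant gene of each marker list and the 8 genes of most similar profile. Mall, Dnajc7, Zfp57 and Gm38642, neighbours of the 9 genes, the genes at or near 0, the uncalled ciliated cell genes and Rsph1, and the promoter motifs were chosen after values were seen. So were Cd3e, Cd3g, Trac, Trbc2 and Cx3cr1. Another lineage gene is not reported here and was left out of the lists and their counts.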

Additional observations from a re-analysis of the deposited data

How the results depend on the processing

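The alternatives were DESeq2, RLE or no scaling factors, no filter on low counts, a fit that is not robust, counts divided by 4, a replicate block, and each library left out in turn. Among the 9 genes, 2 were lower in the main fit and 3 with scaling by library size only (adding Ermn), and leaving out 1 library gave 1 to 2, with 1 when MRL/lpr replicate 2 or MRL/mpj replicate 1 was left out. The number past both thresholds moved in the same way, from 1 to 3. The number higher was 0, and 0 to 1 with 1 library left out (Mal, without MRL/lpr replicate 3). Of the 43 lineage genes, 6 to 8 were lower and 0 to 3 were higher, with 0 higher when MRL/lpr replicate 2 or MRL/mpj replicate 3 was left out. Scaling by library size only moved the median log2 fold change of all tested genes from -0.01 to -0.13, and Cers2 then had -0.0662 and Csf1r -0.058, while Mag, Cnp and Mal had 0.06 to 0.07. With 1 library left out, Mbp ran from -0.1596 to 0.0555, the sign turning without MRL/mpj replicate 1, and Csf1r from -0.0628 to 0.1439, the sign turning without MRL/lpr replicate 3. With counts divided by 4, Ermn and Mog had too few counts to be tested.

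The labels number the libraries 1 to 3 in both strains. Same-numbered libraries did not deviate together (correlations of -0.04, -0.02 and -0.03 across genes). No pairing was thus seen, but correlations over all tested genes cannot exclude one that touches few of them. With a replicate block, 2 of the 9 genes were lower and 0 higher, and 6 lineage genes were lower and 2 higher, Vcan being lost. Mog, Ermn and Sox10 had at most 64 counts in any library, and the part of depth in their missing calls was not tested.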
